A study of Mus musculus with 8 samples.

Results

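The hepatocyte identity transcription factors followed here are 9 genes, Hnf4a, Foxa1, Foxa2, Foxa3, Onecut1, Onecut2, Cebpa, Cebpb and Prox1, measured in fibrotic mouse liver. They were taken by gene name from the probes of the scanner files, where 11 probes carried one of these names, and the brightest probe of a gene by its mean over all arrays was used. All 9 passed the filter on dim probes, and they are 9 of the 18534 genes and unnamed features tested. Each of 8 one-colour Agilent expression arrays held liver RNA of 1 sample from male mice. The mice had first been given, over 5 weeks, TAA (thioacetamide) or CCl4 (carbon tetrachloride) to induce fibrosis, and both agents injure hepatocytes. During the following 2 weeks or 1 week the mice received miR-29a or a negative control oligonucleotide (NC) every 3 days. The 8 groups were therefore TAA at 2 weeks with miR-29a or NC, TAA at 1 week with miR-29a or NC, CCl4 at 2 weeks with miR-29a or NC, and CCl4 at 1 week with miR-29a or NC, with 1 array each. All 8 groups share the 5-week induction, and no liver without TAA or CCl4 was analysed here. The strain, the age and whether a sample pooled several mice are not given in the sources used here. Every p-value below therefore measures the spread between these arrays under an assumed additive pattern, and not the spread between mice of 1 group.

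As background, hepatocyte identity rests on a small network of DNA-binding proteins that activate one another and, together, the genes of albumin, clotting factors, lipoproteins, bile acid synthesis and detoxification. HNF4A is a nuclear receptor that binds DNA as a homodimer and stands at the centre of this network. FOXA1, FOXA2 and FOXA3 are forkhead proteins, and FOXA1 and FOXA2 are known as pioneer factors that bind closed chromatin. ONECUT1 (HNF6) and ONECUT2 are cut-homeodomain proteins that act in the fetal liver on hepatocyte and bile duct differentiation. CEBPA and CEBPB are basic leucine zipper proteins. CEBPA is linked to the metabolic programme and the quiescence of adult hepatocytes, and CEBPB to the acute-phase response and liver regeneration. PROX1 is a homeodomain protein of hepatocytes that also acts as a corepressor of HNF4A, and it is the defining factor of lymphatic endothelium.

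The sequences below show the agent that was given and the start-site windows of the members the results turn on. The mature mouse miR-29a-3p of RefSeq (GRCm38.p6) is printed with its seed, bases 2 to 8, in capitals, although the labels do not give the arm or the chemistry of the injected oligonucleotide.
mmu-miR-29a-3p: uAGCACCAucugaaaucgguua

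RefSeq start-site windows (GRCm38.p6), 250 bases before and 50 bases after an annotated start, were found for 8 of the 9 members, in 12 windows. Printed are the upstream Hnf4a window on the plus strand, chr2:163506607-163506906, the Onecut1 window on the plus strand, chr9:74861671-74861970, the Cebpa window on the plus strand, chr7:35119043-35119342, and the Foxa3 window on the minus strand, chr7:19023490-19023789. Hnf4a is shown because it varied little and Onecut1 because it varied most, Cebpa because it passed the test in 1 comparison and Foxa3 because its sign under miR-29a followed the agent. Capitals mark matches on either strand to motifs searched as letters, namely CAAAGTNCA for HNF4A, TGTTTNC for FOXA, ATNGAT for ONECUT and TTGCNNAA for C/EBP.
Hnf4a: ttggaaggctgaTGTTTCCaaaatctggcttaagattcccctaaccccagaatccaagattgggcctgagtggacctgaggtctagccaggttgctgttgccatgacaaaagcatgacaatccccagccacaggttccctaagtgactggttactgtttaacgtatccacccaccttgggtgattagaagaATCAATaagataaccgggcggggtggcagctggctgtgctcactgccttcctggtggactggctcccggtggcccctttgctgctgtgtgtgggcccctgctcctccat
Onecut1: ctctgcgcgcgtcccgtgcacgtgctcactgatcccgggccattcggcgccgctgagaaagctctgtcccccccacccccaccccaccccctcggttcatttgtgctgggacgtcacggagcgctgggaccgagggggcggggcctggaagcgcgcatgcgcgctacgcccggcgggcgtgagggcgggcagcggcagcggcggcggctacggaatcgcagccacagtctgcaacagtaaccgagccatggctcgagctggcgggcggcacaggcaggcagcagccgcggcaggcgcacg
Cebpa: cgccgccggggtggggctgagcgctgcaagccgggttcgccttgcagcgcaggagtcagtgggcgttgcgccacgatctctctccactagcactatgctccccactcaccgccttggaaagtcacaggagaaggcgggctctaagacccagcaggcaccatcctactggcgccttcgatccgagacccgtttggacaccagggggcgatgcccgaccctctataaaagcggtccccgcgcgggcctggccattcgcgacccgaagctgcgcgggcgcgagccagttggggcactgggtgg
Foxa3: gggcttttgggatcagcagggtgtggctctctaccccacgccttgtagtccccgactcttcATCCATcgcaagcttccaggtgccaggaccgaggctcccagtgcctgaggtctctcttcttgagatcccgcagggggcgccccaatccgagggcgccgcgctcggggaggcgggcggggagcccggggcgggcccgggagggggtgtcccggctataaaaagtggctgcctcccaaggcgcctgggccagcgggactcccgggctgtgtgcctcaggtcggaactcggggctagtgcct

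The Hnf4a window held 1 FOXA match, TGTTTCC, and 1 ONECUT match, which reads ATCAAT on the printed strand. The Foxa3 window held 1 ONECUT match, ATCCAT on the printed strand, and the Onecut1 and Cebpa windows held 0 matches. Among the windows not printed, Foxa1 and Prox1 held 1 FOXA match each and 1 of the 3 Foxa2 windows held 1 ONECUT match. No 2 of these matches overlapped. Over all 32851 windows of the table, 20.5% held the FOXA letters, 21.4% the ONECUT letters, 10.8% the C/EBP letters and 1.41% the HNF4A letters. A match is a description of letters only.

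Levels are log2 of the processed signal over the 75th percentile of its array, so 0 is the 75th percentile of an array and a step of 1 is 2-fold. They can be compared between arrays for 1 probe and not between probes. Per array, 43.9% to 48.4% of spots exceeded background by the scanner software's flag, and all 9 members did so on all 8 arrays with the probe used. For 399 probes printed 10 times on each array, the median SD of log2 signal lay between 0.0611 and 0.0741, which is the technical noise within an array. The arrays lay on 1 slide and 1 scan, with TAA livers in 1 row and CCl4 livers in the other, so agent and slide row cannot be told apart. Hepatocyte markers were detected throughout, with the summed linear level of 10 markers between 6305 and 7891 in TAA livers and between 7022 and 7847 in CCl4 livers. The sum is set mostly by the brightest markers, and the calls of these markers at 1 week are given below. The TAA 1-week NC array stood apart. Its summed level of 7 neutrophil genes was 452.8, against 91.83 to 165.4 on the other 7 arrays, and that of 11 macrophage genes was 263.2 against 46.41 to 86.08. The part of these cells in the results below was not tested. Calls or differences of members and of gene lists between the agents at 1 week are given without this array as well. In whole liver, fewer cells of a type and less RNA per cell cannot be told apart.

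Hnf4a and Foxa2 varied little over the 8 livers, 6 of the 9 factors had ranges around that of the median feature, and Onecut1 varied more than almost any other gene measured. The distance from the lowest to the highest array was 0.41 for Foxa2 and 0.42 for Hnf4a on the log2 scale, and 93.3% and 92.8% of the 18534 features had a wider range. Onecut2 spanned 0.69, Foxa1 0.86, Foxa3 0.92, Cebpa 1.04, Prox1 1.08 and Cebpb 1.23, around the median range of all features, 0.93. Onecut1 spanned 4.74, or 26.8-fold, and only 68 features, 0.367% of all, had a wider range. The ranges are a description over arrays of different conditions, with no test.

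**Figure D1:**
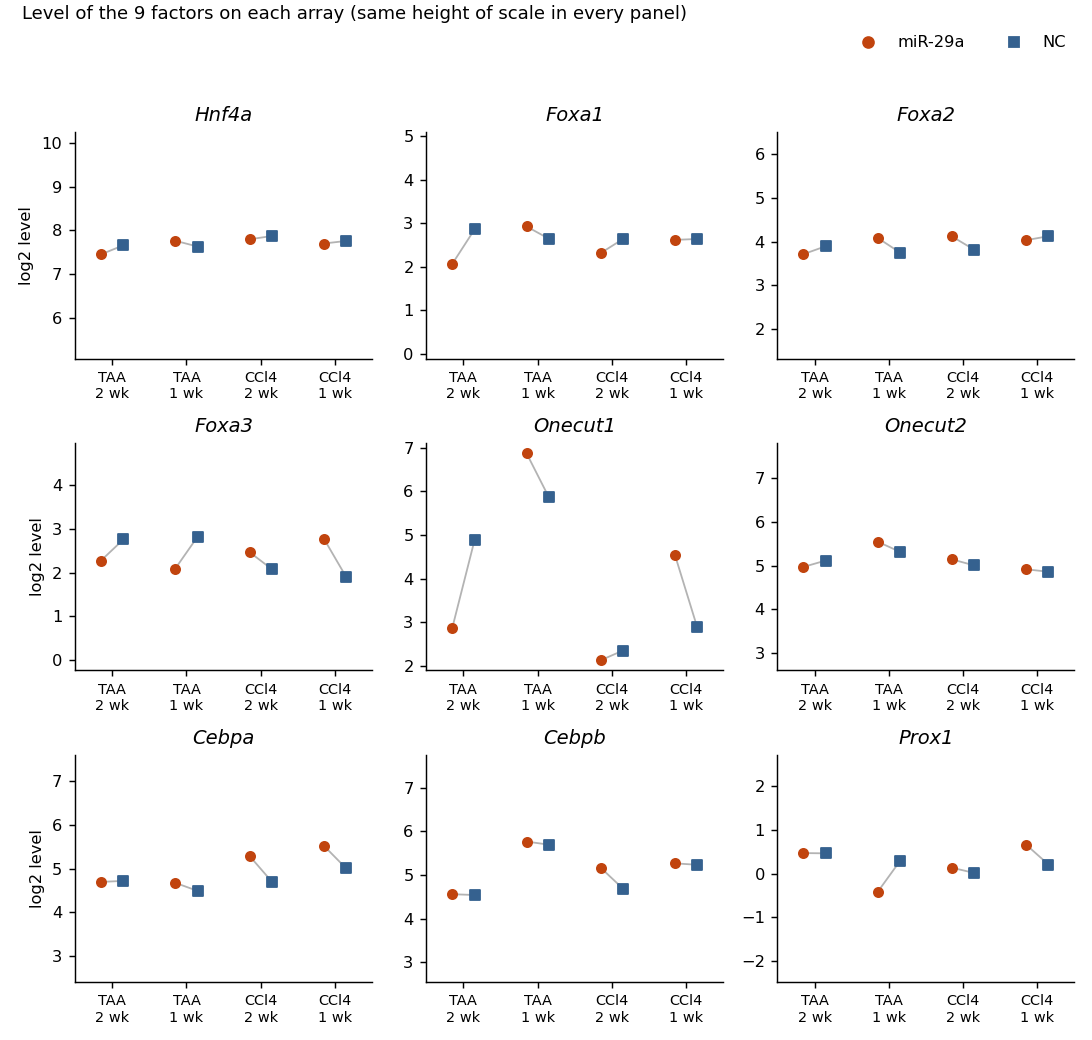
Level of each of the 9 factors on the 8 arrays (y axis, log2 of signal over the array's 75th percentile; every panel spans the same height), by agent and week (x axis), with circles for miR-29a and squares for NC joined by a line. Hnf4a and Foxa2 stay within 0.42, while Onecut1 runs between 2.13 and 6.88.

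**Figure D2:**
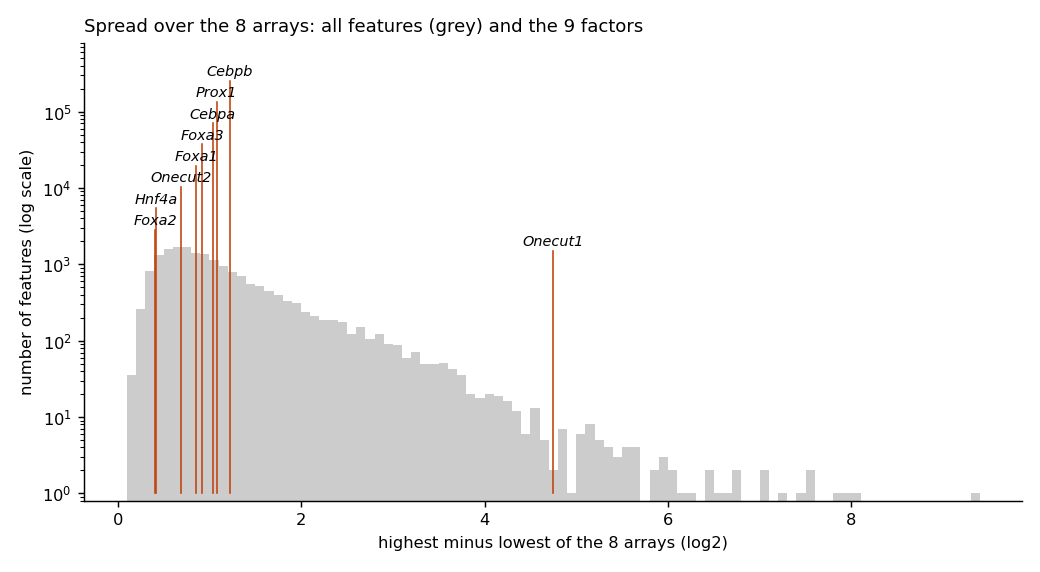
Number of features (y axis, log scale) by the distance between the lowest and the highest of the 8 arrays (x axis, log2), with red lines at the 9 factors, whose heights only separate the names. Onecut1 lies at 4.74, far right of the other 8 factors, which lie between 0.41 and 1.23.

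The agents were compared within each week in a limma fit with a mean for each agent and week and a term for the oligonucleotide (3 residual degrees of freedom), with Benjamini-Hochberg adjustment over all 18534 features. TAA against CCl4 livers at 1 week was the only comparison in which a member passed. Cebpa was lower in TAA livers, with a log2 difference of −0.68 ± 0.19 (SE, adjusted p = 0.0427), and Onecut2 was higher, with 0.54 ± 0.15 (SE, adjusted p = 0.0376). These 2 calls among 9 members stand beside 35.7% of all features called, 12.6% higher and 23.1% lower, so the share of members called was not above the background. The median difference was 0.12 over the 9 members and −0.16 over all features. Array-median scaling moved the median of all features to −0.75, with 9.49% of the called features higher against 35.4%, and quantile normalization moved it to −0.06. Relative to the median of all features, Cebpa stood at −0.53 and Onecut2 at 0.70 with either the percentile or the array median, and at −0.28 and 0.97 after quantile normalization. Cebpa lost its call after quantile normalization (−0.34, adjusted p = 0.23) and Onecut2 reached −0.050 with array-median scaling. Without the TAA 1-week NC array, Onecut2 (0.65, adjusted p = 0.0446) and Prox1 passed and Cebpa did not (−0.77, adjusted p = 0.081). In that setting 30.5% of all features were called. No member was called without the CCl4 1-week miR-29a array (9.52% of features called), the CCl4 1-week NC array (16.0%), either CCl4 2-week array (23.4%) or the TAA 1-week miR-29a array (40.2%).

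No other comparison called a member. For TAA against CCl4 livers at 2 weeks 0 of 9 members passed, with 0% of all features called. For 2 weeks against 1 week, 0 of 9 passed in TAA livers, where 0% of features were called, and 0 of 9 in CCl4 livers, where 1.08% were. The additive fit over all 8 arrays (4 residual degrees of freedom) called 0 of 9 for TAA against CCl4 and 0 of 9 for 2 weeks against 1 week, with 0% of features called in each. At an unadjusted p under 0.05 those fits held 5323 and 961 features, the TAA against CCl4 fit at 2 weeks 2093 and the 2-week against 1-week fit in TAA livers 4998. The change with week differed between the agents for 9.84% of features and for 0 of 9 members. With the percentile scaling, the 4 TAA arrays lay wholly above or below the 4 CCl4 arrays on no member. They did so for 23.5% of features. The overlap on members depends on the scaling, which shifts all features of an array together. With array-median scaling the additive limma fit called Hnf4a (−0.55, adjusted p = 0.0481) and Cebpa (−0.88, adjusted p = 0.0431) lower in TAA livers. It called 29.3% of all features there. Relative to the median of all features, Hnf4a stood at −0.03 and Cebpa at −0.36 in either scaling.

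**Figure D3:**
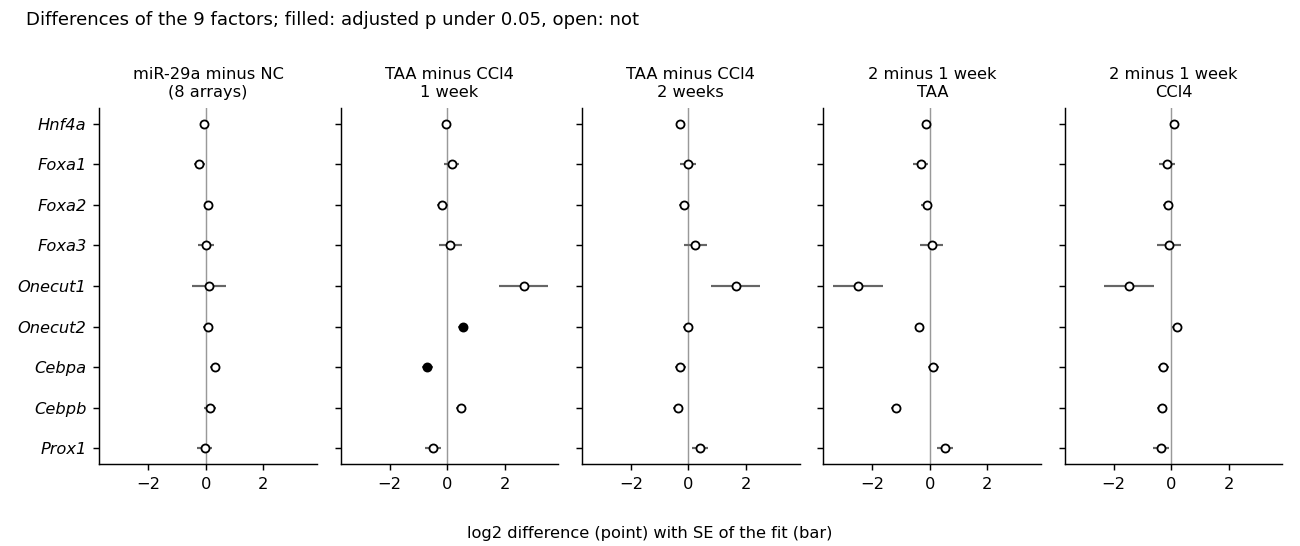
Log2 difference (point) and SE of the limma fit (bar) of the 9 factors in 5 comparisons, filled where the adjusted p is under 0.05. Onecut2 and Cebpa for TAA minus CCl4 at 1 week are the filled points, and Onecut1 has the largest differences and the widest bars.

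Hnf4a, the nuclear receptor at the centre of the network, was nearly flat. Its probe lies on chr2:163398548-163398607 (mm9, plus strand). Hnf4a had a log2 level in TAA livers of 7.45 with miR-29a and 7.66 with NC at 2 weeks, and 7.76 with miR-29a and 7.63 with NC at 1 week. Hnf4a in CCl4 livers stood at 7.80 with miR-29a and 7.87 with NC at 2 weeks, and 7.70 with miR-29a and 7.76 with NC at 1 week. With this scaling the groups overlapped, and the lowest value was that of the TAA 2-week miR-29a liver. The difference of TAA from CCl4 livers was −0.03 ± 0.14 at 1 week and −0.28 ± 0.14 at 2 weeks (SE, adjusted p = 0.866 and 0.471). In limma the 1-week difference was −0.63 (adjusted p = 0.0267) with array-median scaling and 0.29 (adjusted p = 0.102) after quantile normalization. Relative to the median of all features it stood at 0.125 with the percentile or the array median and at 0.35 after quantile normalization.

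Foxa2, a forkhead factor with a role in bile acid and lipid metabolism, was as narrow, and its 2 probes gave nearly the same order. Foxa2 had a log2 level in TAA livers of 3.72 with miR-29a and 3.90 with NC at 2 weeks, and 4.09 with miR-29a and 3.75 with NC at 1 week. Foxa2 in CCl4 livers stood at 4.12 with miR-29a and 3.82 with NC at 2 weeks, and 4.04 with miR-29a and 4.13 with NC at 1 week. The second probe, which overlaps the first on chr2 (mm9, 147868614 to 147868673 against 147868669 to 147868728), ran between 1.47 and 1.86, with r = 0.93 and rho = 0.98 between the probes over the 8 arrays. At 1 week TAA livers differed from CCl4 livers by −0.16 ± 0.18 (SE, adjusted p = 0.512).

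Foxa1, the other pioneer factor, had 1 low liver. Its probe lies on chr12:58641764-58641823 (mm9, minus strand). Its log2 level was 2.07 with miR-29a and 2.86 with NC in TAA livers at 2 weeks, and 2.93 with miR-29a and 2.64 with NC in TAA livers at 1 week. Foxa1 in CCl4 livers stood at 2.32 with miR-29a and 2.64 with NC at 2 weeks, and 2.62 with miR-29a and 2.64 with NC at 1 week. The miR-29a livers held both the lowest and the highest value, and all 4 NC livers lay between 2.64 and 2.86. The TAA 2-week miR-29a liver was the lowest of the 8 for 3 of the 9 members, Hnf4a, Foxa1 and Foxa2, and for 6.15% of all features.

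Foxa3, the remaining forkhead factor, differed in opposite directions under the agents. The probe lies on chr7:19599053-19599112 (mm9, minus strand). Foxa3 had a log2 level in TAA livers of 2.28 with miR-29a and 2.76 with NC at 2 weeks, and 2.09 with miR-29a and 2.82 with NC at 1 week. Foxa3 in CCl4 livers stood at 2.47 with miR-29a and 2.08 with NC at 2 weeks, and 2.78 with miR-29a and 1.91 with NC at 1 week. Thus the miR-29a liver of a pair was the lower one in both TAA pairs and the higher one in both CCl4 pairs. The test of that difference gave −1.24 ± 0.30 (SE) on the log2 scale with an unadjusted p of 0.00776 and an adjusted p of 1 in limma. Directions opposed in this way in 10.9% of all features.

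Onecut1, or HNF6, varied most of the 9, with the agent and with the week. The brighter probe, on chr9:74737402-74737461 (mm9, plus strand), was annotated to an Ensembl transcript. Onecut1 had a log2 level in TAA livers of 2.87 with miR-29a and 4.89 with NC at 2 weeks, and 6.88 with miR-29a and 5.87 with NC at 1 week. Onecut1 in CCl4 livers stood at 2.13 with miR-29a and 2.35 with NC at 2 weeks, and 4.54 with miR-29a and 2.88 with NC at 1 week. Both TAA livers at 1 week lay above the other 6, and both CCl4 livers at 2 weeks lay below them. The processed signals behind these levels ran between 1468.9 and 16006.2 in TAA livers and between 838.2 and 4390.7 in CCl4 livers, and all 8 were well above background.

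In each of the 4 pairs matched for week and oligonucleotide Onecut1 was higher in the TAA liver, by log2 differences of 0.74 with miR-29a and 2.53 with NC at 2 weeks, and of 2.34 with miR-29a and 2.99 with NC at 1 week. In each of the 4 pairs matched for agent and oligonucleotide it was lower at 2 weeks, with log2 differences of −4.00 with miR-29a and −0.99 with NC in TAA livers, and of −2.41 with miR-29a and −0.53 with NC in CCl4 livers. The limma differences were nevertheless not called. TAA minus CCl4 was 2.15 ± 0.60 over both weeks (SE, 4.43-fold, adjusted p = 0.130) and 2.66 ± 0.86 at 1 week (SE, adjusted p = 0.0624). The agent difference at 2 weeks was 1.64 ± 0.86 (SE, adjusted p = 0.485). Leaving out 1 array or pair, the agent difference ran from 0.22 to 3.05 at 2 weeks and from 1.63 to 3.69 at 1 week. Between the weeks the fit gave −1.98 ± 0.60 (SE, adjusted p = 0.872) over both agents and −2.49 ± 0.86 (SE, adjusted p = 0.147) in TAA livers, where it ran from −3.91 to −1.08 on leaving out arrays. At 1 week the TAA call was gained with quantile normalization (2.99, adjusted p = 0.0499, 31.6% of features called) and normexp background correction (2.56, adjusted p = 0.0353, 44.5%). It was also gained with only features above background on all 8 arrays (39.4%) and with an intensity trend (38.8%). Leaving out the TAA 2-week pair gained it too (adjusted p = 0.0244, 28.2%), as did leaving out either array of that pair.

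The dimmer Onecut1 probe, on chr9:74710921-74710980 (mm9, plus strand) and annotated to the RefSeq transcript, ordered the livers nearly alike. In TAA livers this probe read −2.88 with miR-29a and −0.34 with NC at 2 weeks, and 0.86 with miR-29a and 0.35 with NC at 1 week. The CCl4 values were −0.80 with miR-29a and −3.06 with NC at 1 week, and it was not well above background on either 2-week array. Over the 8 arrays the probes had r = 0.98 and rho = 0.95. With this probe TAA minus CCl4 at 1 week was 2.53 (adjusted p = 0.115).

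**Figure D4:**
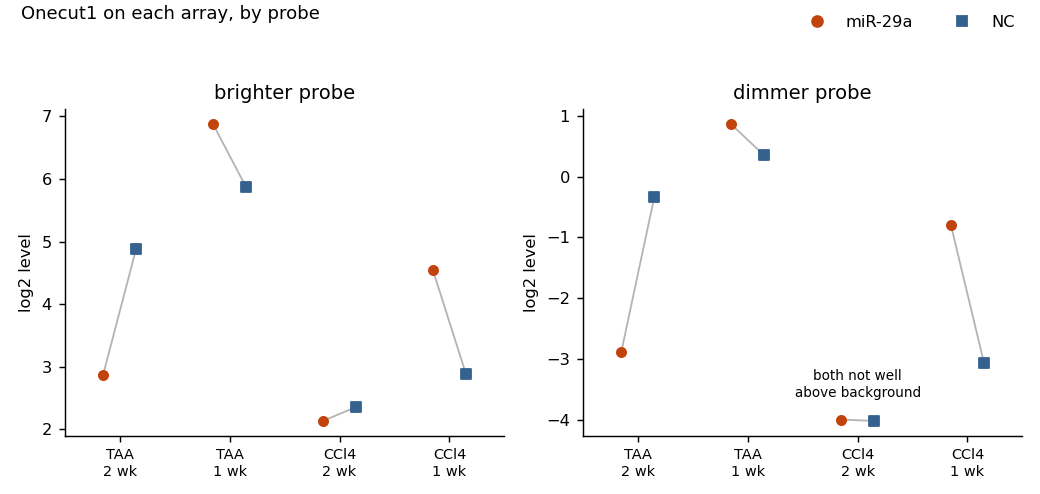
Log2 level of Onecut1 (y axis, own scale for each probe) by agent and week (x axis) for the brighter probe (left) and the dimmer probe (right), with circles for miR-29a and squares for NC joined by a line. Both probes are highest in the 2 TAA 1-week livers and lowest in the 2 CCl4 2-week livers, where the dimmer probe was not well above background.

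Onecut2, the paralogue of Onecut1, ran in a narrower band. Its probe lies on mouse chromosome 18. Onecut2 had a log2 level in TAA livers of 4.97 with miR-29a and 5.12 with NC at 2 weeks, and 5.55 with miR-29a and 5.32 with NC at 1 week. Onecut2 in CCl4 livers stood at 5.15 with miR-29a and 5.01 with NC at 2 weeks, and 4.92 with miR-29a and 4.86 with NC at 1 week. As for Onecut1, the 2 TAA 1-week livers were the highest, but the order of the other 6 differed. At 2 weeks TAA minus CCl4 was −0.03 ± 0.15 (SE, adjusted p = 0.941), and 2 weeks minus 1 week in TAA livers was −0.39 ± 0.15 (SE, adjusted p = 0.170).

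Cebpa, which is linked to the metabolic programme of mature hepatocytes, was lower in TAA livers at 1 week, as given above. Its probe is on chr7:35906517-35906576 (mm9, plus strand). Cebpa had a log2 level in TAA livers of 4.70 with miR-29a and 4.72 with NC at 2 weeks, and 4.67 with miR-29a and 4.49 with NC at 1 week. Cebpa in CCl4 livers stood at 5.29 with miR-29a and 4.70 with NC at 2 weeks, and 5.52 with miR-29a and 5.01 with NC at 1 week. The 4 TAA livers lay within 0.23 of each other, and at 1 week both lay below both CCl4 livers. Over both weeks TAA minus CCl4 was −0.49 ± 0.16 (SE, adjusted p = 0.136) and at 2 weeks −0.29 ± 0.19 (SE, adjusted p = 0.546). The miR-29a liver was the higher one in both CCl4 pairs, by 0.59 at 2 weeks and 0.52 at 1 week, against −0.02 and 0.18 in the TAA pairs.

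Cebpb, a mediator of the acute-phase response, was low in both TAA livers at 2 weeks. The Cebpb probe is on chr2:167515828-167515887 (mm9, plus strand). Its log2 level was 4.56 with miR-29a and 4.54 with NC in TAA livers at 2 weeks, and 5.77 with miR-29a and 5.70 with NC in TAA livers at 1 week. Cebpb in CCl4 livers stood at 5.16 with miR-29a and 4.68 with NC at 2 weeks, and 5.27 with miR-29a and 5.23 with NC at 1 week. The TAA livers at 2 weeks were the 2 lowest of the 8 and those at 1 week the 2 highest, with 0.02 and 0.07 between the livers of a pair. In TAA livers 2 weeks minus 1 week was −1.18 ± 0.17 (SE, 2.27-fold, adjusted p = 0.0634), in CCl4 livers −0.33 ± 0.17 (SE, adjusted p = 0.374), and the test of the difference between the agents gave −0.86 ± 0.23 (SE, adjusted p = 0.0778). The difference in TAA livers missed the threshold here and passed it with normexp correction (−1.04, adjusted p = 0.0201), array-median scaling (−0.99, adjusted p = 0.0478), only features above background on all 8 arrays (adjusted p = 0.0413) and an intensity trend in the variance (adjusted p = 0.0335).

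Cebpb had nearly one level in the TAA 1-week livers, 5.77 with miR-29a and 5.70 with NC, whereas some but not all inflammatory genes were far apart in them. Cebpd, a family member that is induced with the acute-phase response, had a log2 level of 1.44 with miR-29a and 4.29 with NC there, and of 1.70 to 2.61 in the other 6 livers. The summed linear level of 20 acute-phase genes was 4422 with miR-29a and 12810 with NC. Lcn2, an acute-phase protein also made by neutrophils, had log2 levels of 1.44 with miR-29a and 10.05 with NC, and S100a8, a neutrophil gene, of −1.39 with miR-29a and 6.02 with NC. Other genes of the same lists were close, among them Csf3r (7.30 with miR-29a and 7.01 with NC), Elane (2.01 and 2.07) and Il6ra (4.48 and 4.73).

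Prox1, the HNF4A corepressor, was lowest in the TAA 1-week miR-29a liver. The Prox1 probe is on chr1:191945785-191945844 (mm9, minus strand). Prox1 had a log2 level in TAA livers of 0.47 with miR-29a and 0.47 with NC at 2 weeks, and −0.42 with miR-29a and 0.29 with NC at 1 week. Prox1 in CCl4 livers stood at 0.14 with miR-29a and 0.02 with NC at 2 weeks, and 0.66 with miR-29a and 0.21 with NC at 1 week. The 2 agents overlapped in the miR-29a livers, while both TAA livers lay above both CCl4 livers with NC. TAA minus CCl4 was −0.50 ± 0.28 at 1 week and 0.39 ± 0.28 at 2 weeks (SE, adjusted p = 0.216 and 0.575). PROX1 also marks lymphatic endothelium, and 4 of 7 lymphatic markers were measured, Pdpn, Reln, Lyve1 and Thy1. Their summed linear levels lay between 2.11 and 2.87 in TAA livers and between 1.59 and 3.92 in CCl4 livers. Flt4, Ccl21a and Mmrn1 were not measured. Reln is also in the stellate cell list, so the sum is not particular to lymphatic endothelium. The part of lymphatic cells in the Prox1 values was not tested.

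The question of the series, the response to miR-29a, gave no call among the 9 factors. In the additive limma fit the miR-29a minus NC difference ran between −0.21 ± 0.19 for Foxa1 and 0.32 ± 0.16 for Cebpa (SE), with an adjusted p of 1 for every member. It called 0 of 9 members and 0% of all features, and 525 features had an unadjusted p under 0.05. The median difference was 0.07 over the 9 members and 0.03 over all features. Hnf4a differed by −0.05 ± 0.12, Foxa2 by 0.09 ± 0.14, Foxa3 by 0.01 ± 0.28, Onecut1 by 0.11 ± 0.60, Onecut2 by 0.07 ± 0.16, Cebpb by 0.15 ± 0.21 and Prox1 by −0.03 ± 0.26 (SE). Cebpb was higher with miR-29a in all 4 pairs, by 0.02 to 0.48, and was the 1 of 9 members with a single sign, against 16.0% of all features.

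Single pairs differed by more than the average. Onecut1 was the 1 of 9 members that differed over 2-fold between miR-29a and NC in TAA livers at 2 weeks (2.68% of features did), in TAA livers at 1 week (9.83%) and in CCl4 livers at 1 week (2.83%), and 0 of 9 did in CCl4 livers at 2 weeks (1.86%). Its log2 differences in those pairs were −2.01 in TAA livers at 2 weeks and 1.01 at 1 week, and −0.22 in CCl4 livers at 2 weeks and 1.66 at 1 week. The miR-29a liver was thus the lower one in both 2-week pairs and the higher one in both 1-week pairs. The test of that difference between weeks gave −2.45 ± 0.76 (SE) with an unadjusted p of 0.0211 and an adjusted p of 1. Neither the difference between agents nor that between weeks in the response to miR-29a called any of 9 members, with 0% of features called in each.

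Between the agents, 2 of 9 members passed 2-fold in the miR-29a pair at 1 week (21.9% of features), 1 in the NC pair at 1 week (23.0%), 0 in the miR-29a pair at 2 weeks (3.98%) and 1 in the NC pair at 2 weeks (3.26%). These were Onecut1 and, with miR-29a at 1 week, also Prox1, at −1.08. Between the weeks, 2 of 9 did in the TAA miR-29a pair (7.43%), Cebpb and Onecut1, and 1 in the TAA NC pair (13.0%), Cebpb. In CCl4 livers 1, Onecut1, did in the miR-29a pair (7.92%) and 0 in the NC pair (7.42%). The largest single difference was that of Onecut1 between the TAA miR-29a livers, 16.0-fold lower at 2 weeks.

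Other genes of the network were counted in TAA against CCl4 livers at 1 week, where 35.7% of all features were called. Array-median scaling called 63.6% of all features there, 9.49% of these higher, and quantile normalization 31.6%. Of 30 other liver-enriched transcription factors 26 were measured, and 2 were called higher and 3 lower, with a median of −0.17 against −0.16 for all features. Array-median scaling gave 1 higher and 15 lower with a median of −0.77, and quantile normalization 4 higher and 3 lower with the sign of the median turned, 0.18. Without the TAA 1-week NC array fewer were called, as were fewer of all features, and the median was −0.04. Tcf7l2, a mediator of Wnt signalling, was higher by 1.40 ± 0.18, Cebpg lower, at −0.96 ± 0.21, and Nr0b2 lower, at −2.13 ± 0.57 (SE, adjusted p = 0.00578, 0.0228 and 0.0375). Nr0b2 encodes SHP, the bile acid-induced repressor. It stood at 0.40 with miR-29a and −1.09 with NC in TAA livers, against 1.25 and 2.32 in CCl4 livers. On leaving out single arrays it kept its call only without the TAA 1-week miR-29a array. Nr1h4, the bile acid receptor, and Nr5a2, an activator of bile acid synthesis genes, ran between 5.28 and 6.12 and between 3.75 and 4.43 over the 8 livers.

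Of 24 secreted and lipoprotein genes known to be bound by HNF4A, 6 were called lower and 0 higher at 1 week, with a median of −0.15. Of all features, 35.7% were called with the chosen setting, 63.6% with array-median scaling (9.49% of these higher) and 31.6% after quantile normalization. Array-median scaling gave 14 lower and 0 higher (median −0.74) and quantile normalization 3 lower and 1 higher (−0.08). In the fit without the TAA 1-week NC array the median was −0.06. Apom, an apolipoprotein of HDL, was lower at −2.95 ± 0.25, Apoa4 at −2.17 ± 0.35 and F9, a clotting factor, at −0.88 ± 0.15 (SE, adjusted p = 0.00413, 0.00958 and 0.0106). Apoa4 and F9 were not called without the CCl4 1-week NC array (−2.16 and −0.78) or miR-29a array (−2.17 and −0.97). Fewer secreted genes were called in those 2 fits, as were fewer of all features. Apom stood at 3.97 with miR-29a and 4.79 with NC in TAA livers at 1 week, against 7.35 and 7.30 in CCl4 livers, while Alb, the albumin gene, ran between 10.83 and 11.21 over all 8. Of 24 metabolic enzyme genes linked to HNF4A, FOXA and C/EBP factors, 12 were called lower and 2 higher, with a median of −0.72, or −0.42 after quantile normalization (9 lower and 2 higher) and −1.31 with array-median scaling (18 lower and 0 higher). Fewer of these enzyme genes were called without the TAA 1-week NC array or either CCl4 1-week array, as were fewer of all features. Their median was −0.74 without the CCl4 NC array and −0.78 without the CCl4 miR-29a array. Cyp27a1, of bile acid synthesis, was lower at −1.74 ± 0.20 and Baat, which conjugates bile acids, at −1.64 ± 0.26 (SE, adjusted p = 0.00513 and 0.00895). Baat was not called without the CCl4 1-week NC array (−1.49) or miR-29a array (−1.80). Cyp8b1, of the same pathway, stood at −0.53 with miR-29a and was not well above background with NC in TAA livers at 1 week, against 2.44 with miR-29a and 2.03 with NC in CCl4 livers. Hnf4a itself differed by −0.03 ± 0.14 (SE) there, by −0.63 with array-median scaling and by 0.29 after quantile normalization. Its part in the values of these genes was not tested.

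Of 12 fetal liver genes 6 were measured, of which 3 were called higher in TAA livers at 1 week and 0 lower, with a median of 0.75. Afp, the fetal serum protein, was higher by 1.22 ± 0.26 (SE, adjusted p = 0.0192). H19, a fetal non-coding RNA, and Hmga2, a fetal chromatin protein, were not well above background on either CCl4 1-week array and were at least 6.68-fold and at least 4.05-fold higher (adjusted p = 0.00438 and 0.0121), measured against the dimmest detected signal of those arrays. Of 20 acute-phase genes, 1 was called higher (Hp, 0.74 ± 0.20, adjusted p = 0.039) and 1 lower (Crp, −0.96 ± 0.17, adjusted p = 0.0122, SE), with a median of 0.73. That median rests on the TAA 1-week NC liver. TAA minus CCl4 had a median of −0.19 in the miR-29a pair, with 8 genes positive and 12 negative, and of 1.85 in the NC pair, with 18 positive and 2 negative. Without the TAA 1-week NC array 1 acute-phase gene was called higher and 6 lower (median −0.20), and Hp was not called (adjusted p = 0.084), while the fetal list had 3 higher and 0 lower. With array-median scaling the fetal and acute-phase medians were 0.15 and 0.13, beside −0.75 for all features. It called 2 fetal genes higher and 1 lower, and 0 acute-phase genes higher and 5 lower. For all counts here, the share of all features called was 35.7% with the chosen setting and 31.6% after quantile normalization. With array-median scaling it was 63.6%, 9.49% of these higher. Of the 9 of 12 bile duct markers measured, 0 were called, and their summed linear levels lay between 10.46 and 15.03 in TAA livers and between 5.41 and 11.36 in CCl4 livers. Sox9 ran between −1.17 and 0.22 and Krt19 between −1.73 and 0.53 over the 8 livers. Lyz2, a macrophage gene, ran between −1.89 and 0.77. Of 10 hepatocyte markers 0 were called higher and 2 lower, with a median of −0.41 against −0.16 for all features. Of the markers of other cells, 1 of 11 macrophage, 1 of 7 neutrophil, 2 of 4 lymphatic and 1 of 12 stellate cell genes were called higher. Lower were 2 of 8 endothelial, 1 lymphatic and 1 stellate cell gene. Array-median scaling gave 0 lymphatic and 0 stellate cell genes higher, and 6 endothelial, 1 lymphatic and 8 stellate cell genes lower, and quantile normalization 0 lymphatic higher and 1 lower. In the 1-week miR-29a pair, which leaves out the TAA 1-week NC array, TAA minus CCl4 had a median of −0.63 over the neutrophil genes and −0.06 over the macrophage genes. In the NC pair these medians were 3.28 and 2.01.

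Patterns most like those of the members were looked for by Pearson's r over the 8 arrays among 11585 named genes above background on all of them. Foxa3 was most like Cyp7a1, whose enzyme sets the pace of bile acid formation (r = 0.96, rho = 0.90), and next Hmgb2 (r = 0.88). Cyp7a1 stood at 1.97 with miR-29a and 3.65 with NC in TAA livers at 2 weeks, and at 0.96 with miR-29a and 2.83 with NC at 1 week. The CCl4 livers stood at 2.52 with miR-29a and 1.00 with NC at 2 weeks, and at 3.76 with miR-29a and 0.74 with NC at 1 week. It was thus also the lower one with miR-29a in both TAA pairs and the higher one in both CCl4 pairs, over a range of 3.01 against 0.92 for Foxa3. The arrays share 1 slide, and with 8 arrays and 11585 genes a high r for some gene is a description with no p.

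**Figure D5:**
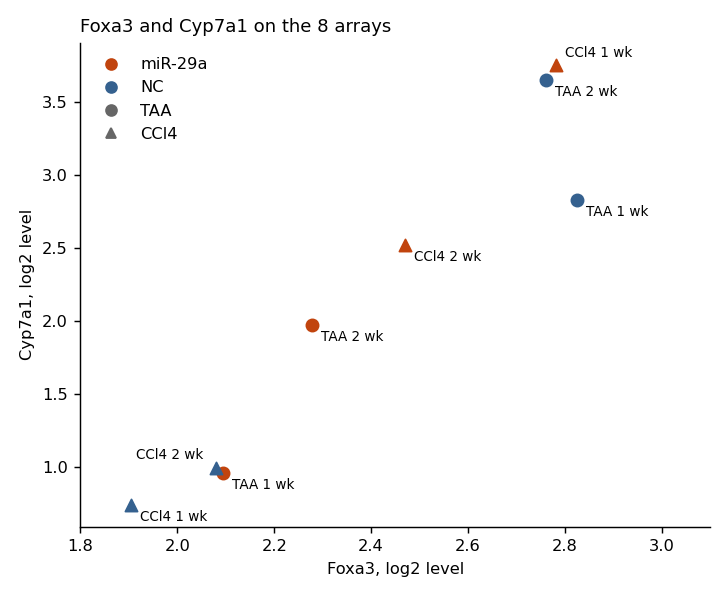
Log2 level of Cyp7a1 (y axis) against that of Foxa3 (x axis) in the 8 livers, with circles for TAA, triangles for CCl4, red for miR-29a and blue for NC. The red points are high among triangles and low among circles on both axes.

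Onecut1 was most like Zfp933 (r = 0.98) and Poc1a (r = 0.97), whose ranges were 0.55 and 0.60 against 4.74 for Onecut1. Cebpa was most like Exosc4 (r = 0.97) and the nuclear receptor Nr2f2 (r = 0.95). Nr2f2 was itself lower in TAA livers at 1 week, at −0.75 ± 0.13 (SE, limma adjusted p = 0.0119). It was not called without the CCl4 1-week NC array (−0.83) or miR-29a array (−0.68). Hnf4a was most like Mlh3 and Fgfr1op2 (r = 0.96 each), Foxa1 like Zfp619 and Greb1 (r = 0.89 each) and Foxa2 like Krt9 and Hpf1 (r = 0.91 each). Onecut2 was most like Itprid2 and Tarbp2 (r = 0.98 each), Cebpb like BC147527 and Ap1s1 (r = 0.97 and 0.96) and Prox1 like Rtp4 and 1810058I24Rik (r = 0.98 and 0.97). Between members, the highest r was 0.75, of Onecut1 with Onecut2, and the lowest was −0.68, of Onecut2 with Prox1.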

How the data were processed

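Liver RNA of 8 samples was measured on 8 one-colour arrays, 1 per agent, week and oligonucleotide, grouped by label. The authors read spot intensity, per the file headers, in Agilent Feature Extraction (10.10.1.1) with background subtraction. The authors deposited a log2 matrix whose columns equalled the log2 processed signal minus 1 constant (within 0.01 for 99.76% to 99.83% of 55657 probes), with column medians of −4.06 to −3.45. Its scaling was not described. Flags scored 0 or 1 per spot were deposited as well (unit other).

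Outlier and control spots were left out (24 of 55681 probes lost), spots of a probe were averaged, and log2 signal minus the 75th percentile was taken. Probes well above background on at least 4 arrays were kept, the brightest per gene. Of the probes 27656 were named by accession, 3401 by symbol and 321 by older symbol through RefSeq (GRCm38.p6), and 24303 kept the file name. limma 3.58.1 in R 4.3.3 (with version 1.17.8 of data.table) tested the differences with Benjamini-Hochberg adjustment at 0.05 and was tested on simulated data. Members and lists were chosen with earlier results of these data known, and the lists without single arrays were added after seeing the data. All 9 members are named; of other lists, up to 3 genes with the largest called difference per comparison at 1 week, plus fixed markers. Precision is limited by 1 array per group.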

Additional observations from a re-analysis of the deposited data

Results flagged for a closer look

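Opposite directions in both matched pairs of 2 conditions marked the following values, each untested beyond the interaction term given. In Foxa3 the miR-29a minus NC difference was negative in both TAA pairs and positive in both CCl4 pairs, a difference of −1.24 between the agents (adjusted p = 1 in limma). In Onecut1 it was negative in both 2-week pairs and positive in both 1-week pairs, a difference of −2.45 between the weeks (adjusted p = 1). In Cebpb the TAA minus CCl4 difference was negative in both pairs at 2 weeks and positive in both at 1 week, a difference of −0.86 (adjusted p = 0.0778). In Onecut2 the change with week was negative in both TAA pairs and positive in both CCl4 pairs, a difference of −0.57 (adjusted p = 0.136). In Cebpa it was positive in both TAA pairs and negative in both CCl4 pairs, a difference of 0.40 (adjusted p = 0.38), and in Prox1 likewise, a difference of 0.89 (adjusted p = 0.205). Of all features, such opposition held for 10.9% for miR-29a by agent, 14.6% for miR-29a by week, 16.6% for the agent by week and 35.2% for the week by agent.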

How the results depend on the processing

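With 1 array per group, each difference rests on few degrees of freedom, and slide or scan could not be fitted as a block because all arrays share both. Among TAA against CCl4 livers at 1 week, 2 members were called with the chosen setting (35.7% of features called). Array-median scaling called 4 (Hnf4a, Foxa2, Cebpa and Prox1, all lower, as 63.6% of features were called) and an intensity trend 4 (38.8%). Normexp correction called 3 (44.5%), quantile normalization 3 (31.6%) and only features above background on all 8 arrays 3 (39.4%). Without a filter on dim probes 0 were called (11.2%). Leaving out 1 array or pair, the difference ran from 0.44 to 0.65 for Onecut2 and from −0.82 to −0.55 for Cebpa. For TAA against CCl4 over both weeks 0 became 2 with array-median scaling (29.3% of features called) and 0 to 2 on leaving out arrays. The 2 came without the TAA 2-week pair (28.2%), where only 1-week arrays of TAA livers remained. That setting repeats the 1-week comparison without this pair and is not a result over both weeks. For 2 weeks against 1 week in TAA livers 0 became 1, Cebpb, with normexp correction (13.7% of features called), array-median scaling (4.11%), features above background on all 8 arrays (5.11%) and an intensity trend (6.47%), beside 0% with the chosen setting. For the agent by week term 0 became 1 with an intensity trend (Cebpb, 13.5% called) and 0 to 1 on leaving out arrays (Prox1, without the TAA 1-week NC array, 12.8% called), and 0% were called without any 1 CCl4 or TAA 2-week array. For miR-29a against NC, the agent and week combination as a replicate block called 0 members, as did every other setting run; Cebpa had 0.32 ± 0.14 (SE, adjusted p = 0.786) with the block.

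Some signs turned, that of the called Onecut2 difference included. For TAA minus CCl4 at 1 week array-median scaling gave −0.44 for Foxa1, −0.48 for Foxa3, −0.050 for Onecut2 and −0.11 for Cebpb, a shift common to all features, since relative to the median of all features they stood at 0.32, 0.27, 0.70 and 0.64 in either scaling. Also at 1 week quantile normalization gave 0.29 for Hnf4a and 0.15 for Foxa2. For miR-29a minus NC, Foxa3 reached −0.024 with normexp, −0.013 with quantile normalization and −0.031 with array-median scaling. Cebpa between weeks in TAA livers reached −0.0016 with quantile normalization. Leaving out 1 array or pair, miR-29a minus NC ran from −0.13 to 0.017 for Hnf4a, −0.27 to 0.26 for Foxa3, −0.41 to 0.81 for Onecut1, −0.042 to 0.20 for Onecut2, −0.039 to 0.29 for Cebpb and −0.26 to 0.25 for Prox1. TAA minus CCl4 at 1 week ran from −0.16 to 0.090 for Hnf4a, −0.17 to 0.49 for Foxa1 and −0.46 to 0.69 for Foxa3, and Cebpa between weeks in TAA livers from −0.10 to 0.35. The causes were not tested. Array-median scaling lowered the share of higher among called features at 1 week to 9.49%, against 35.4%, and raised the number called to 11796, against 6620. No filter gave 3885 called.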

Other observations

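Target genes of the factors that differed between TAA and CCl4 livers at 1 week were compared again at 2 weeks. Apom had log2 levels of 6.97 with miR-29a and 6.93 with NC in TAA livers at 2 weeks, against 6.17 and 6.44 in CCl4 livers. The change with week differed between the agents by 3.59 ± 0.35 for Apom, 2.43 ± 0.49 for Apoa4 and 2.07 ± 0.29 for Cyp27a1 (SE, limma adjusted p = 0.0266, 0.044 and 0.0271), where 9.84% of all features were called. Cps1, of the urea cycle, differed by 1.35 ± 0.22, and Slc10a1, the bile acid importer, by −1.29 ± 0.23 (SE, adjusted p = 0.0315 and 0.0351). Slc10a1 was higher in TAA livers at 1 week, at 10.22 with miR-29a and 9.85 with NC, against 9.04 and 8.94 in CCl4 livers. Of the secreted genes 2 of 24 were called higher and 0 lower in this term, and of the metabolic enzymes 2 of 24 higher and 1 lower, beside 0 of 9 identity factors. Array-median scaling gave 3 secreted genes and 9 metabolic enzymes higher and 0 lower. It called 18.6% of all features in this term, 84.3% of these higher. Without any 1 of the 4 CCl4 arrays or the 2 TAA 2-week arrays, 0% of all features were called in this term, and Apom, with 3.39 to 3.79, had adjusted p = 0.0637 to 0.151.

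The TAA 1-week miR-29a liver held the highest value of the 8 for 4 of the 9 factors, Foxa1, Onecut1, Onecut2 and Cebpb, and for 22.2% of all features. It held the lowest for 1, Prox1, and for 18.5% of features.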
